A study of Rattus norvegicus with 52 samples.

Results

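Kidney transcripts were compared between 2 congenic rat strains, ET3x2 and ET3x1, after 24 hours on a diet with 4% NaCl. Both strains carry a chromosome segment of the R strain on the background of the Dahl SS/Jr (S) rat, which is inbred and becomes hypertensive when fed salt. All rats were male, were weaned at 30 days onto 0.4% NaCl, were moved to high salt at 39 to 41 days of age and were killed 1 day later, at 40 to 42 days. The members of the comparison were the 16 arrays titled as high salt arrays of these strains, out of 52 in the series: an Affymetrix RAE230A and an RAE230B chip from each of 4 ET3x2 and 4 ET3x1 rats, the chips of a rat being matched by its animal number. The 18 other rats were 5 S rats on high salt, and 5 S, 4 ET3x2 and 4 ET3x1 rats kept on low salt (0.4% NaCl). Of the 31042 probe sets that were not controls, 15473 were bright enough to be tested. The sources used here do not give the ends of the 2 segments, litters or array batches. Rats are numbered in the order of the sample records.

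High salt intake puts sodium handling to the test. Sodium is reabsorbed along the tubule by the proximal exchangers, the Na-K-2Cl cotransporter of the thick ascending limb, the Na-Cl cotransporter of the distal convoluted tubule and the epithelial sodium channel of the collecting duct, the last stages being set by angiotensin and aldosterone. Cells of the inner kidney also face a high and changing osmolality, and they answer by gathering small organic osmolytes such as myo-inositol under the transcription factor Nfat5. A congenic strain exchanges a stretch of chromosome and leaves the rest of the genome, so that a transcript which differs between congenic strains may lie in the segment or answer to it from elsewhere.

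Values are log2 signals as the authors deposited them, and differences are ET3x2 minus ET3x1 on that scale with the standard error of the limma fit. A probe set was called when its limma p, adjusted by the Benjamini-Hochberg method over both chips, was below 0.05. The tissue was kidney by its markers: the proximal tubule genes averaged 11.63 to 11.76 in the ET3x2 rats and 11.71 to 11.76 in the ET3x1 rats. In whole-kidney RNA, fewer cells of a type and less RNA per cell cannot be told apart.

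The arrays of the compared groups differed in their controls, and these values stand beside every result that follows. On RAE230A the Gapdh control probe sets, whose 3' minus 5' signal grows as RNA is shortened, gave 0.747 ± 0.107 for ET3x2 and 0.594 ± 0.0265 for ET3x1 (SD, n = 4 each, two-sided exact permutation p = 0.0286, 0.0429 adjusted over 6 measures), with every ET3x2 rat (0.647 to 0.875) above every ET3x1 rat (0.556 to 0.612). The same held for beta-actin on RAE230B (0.530 ± 0.0800 against 0.300 ± 0.0432, SD, n = 4, exact permutation p = 0.0286, adjusted 0.0429). Of the hybridisation spike-ins, the signal of bioD minus that of bioC was lower in ET3x2 on RAE230A (2.67 ± 0.183 against 3.08 ± 0.150) and on RAE230B (2.16 ± 0.133 against 3.03 ± 0.125), again with no overlap of the 4 and 4 rats (exact permutation p = 0.0286, the smallest that 4 against 4 rats can give, adjusted 0.0429 for each). Beta-actin on RAE230A (0.878 against 0.609, exact permutation p = 0.0571, adjusted 0.0686) and Gapdh on RAE230B (0.589 against 0.422, exact permutation p = 0.0857) differed in the same direction and missed the threshold. The S rats on high salt had a Gapdh difference of 0.812 ± 0.0526 (SD, n = 5) on RAE230A, and the ET3x2 and ET3x1 rats on low salt had means of 0.948 and 0.877, so that the ET3x1 rats on high salt were the lowest of these groups. On RAE230B the ET3x1 rats on high salt were less alike than the ET3x2 rats, with Pearson correlations between arrays, over the tested probe sets, from 0.936 to 0.980 against 0.970 to 0.987. This did not hold on RAE230A, where they ran from 0.988 to 0.994 in ET3x1 and from 0.981 to 0.993 in ET3x2. Between the same strains on low salt no measure passed the test (exact permutation p from 0.143 to 0.8).

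**Figure D1:**
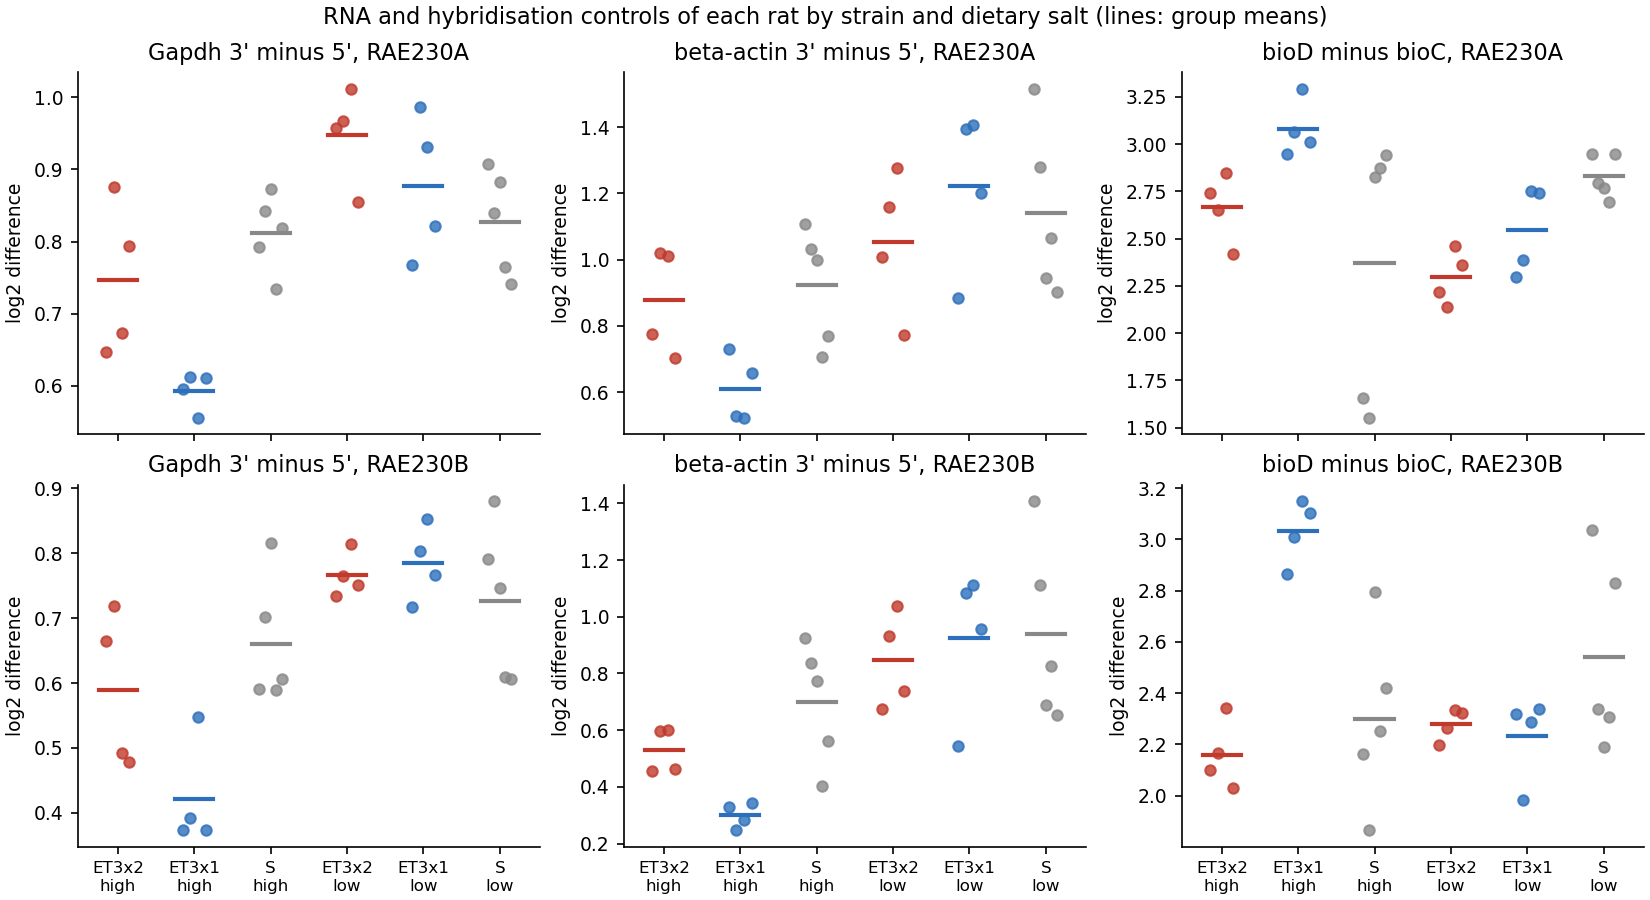
Control signals of each rat (points) and group means (lines), as log2 differences, by strain and diet, with RAE230A in the upper and RAE230B in the lower row and ET3x2 in red, ET3x1 in blue and S in grey. On high salt the 4 ET3x1 rats lie apart from the 4 ET3x2 rats in the Gapdh difference of RAE230A, the beta-actin difference of RAE230B and the spike-in difference of both chips.

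On high salt, kidneys of ET3x2 rats gave a higher signal than those of ET3x1 rats at their most different probe sets of Srrm2, Tns1, Evi5 and Slc5a3, and a lower one at those of Gba3, Cish, Ddx3x and App, with differences from 2.00-fold (Slc5a3) to 3.47-fold (Gba3). limma called 1427 of 15473 probe sets, 9.22% of those tested, with 849 higher (5.49%) and 578 lower (3.74%) in ET3x2, and 4017 had an unadjusted p below 0.05. Most of the called differences were small, with a median absolute difference of 0.38 and 13 past 2-fold. Of 8825 genes with a probe set of their own, 874 were called by their probe set of smallest p, 460 higher and 414 lower. By their brightest probe set 568 were called (6.44%), 368 higher (4.17%) and 200 lower (2.27%), and by the mean of their probe sets 502 (5.69%). Setting the array medians equal turned the balance of directions, to 575 higher and 711 lower, or from 59.5% to 44.7% higher, while the median difference over all tested probe sets went from 0.03 to -0.0003. RAE230B gave 1003 calls among 7540 probe sets (13.3%) and RAE230A 424 among 7933 (5.34%). Leaving out 1 rat at a time gave from 587 to 1359 calls, with 587 without ET3x1 rat 3, 655 without ET3x2 rat 2, 844 without ET3x2 rat 4 and 940 without ET3x2 rat 3.

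The named genes are the 12 with the largest called difference each way, and the higher ones are taken first, beginning with RNA-binding and nuclear proteins. Srrm2 encodes a large scaffold protein of nuclear speckles, where splicing factors are stored. It read 9.70, 10.19, 9.51 and 9.0 in the ET3x2 rats and 8.74, 8.90, 8.11 and 7.22 in the ET3x1 rats, a difference of 1.36 ± 0.27 or 2.56-fold (limma adjusted p = 0.00407). The groups did not overlap, and ET3x1 rats 3 and 4 were the lowest. Another Srrm2 probe set was called in the same direction (0.44 ± 0.10). Ccar1, a transcriptional coactivator gene, ranged from 7.85 to 8.18 in ET3x2 and from 6.73 to 7.69 in ET3x1 (0.84 ± 0.21), and the RNA-binding ataxin gene Atxn2 from 7.23 to 7.72 and from 6.39 to 7.03 (0.79 ± 0.13). Both were free of overlap, but the Ccar1 call was lost without ET3x1 rat 3 or rat 4.

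Osmolyte and membrane transport came next. Slc5a3 is the sodium/myo-inositol cotransporter, which brings the osmolyte myo-inositol into kidney cells. Its signal was 8.29, 8.49, 8.44 and 8.32 in ET3x2 and 7.70, 7.78, 7.16 and 6.90 in ET3x1, so that the ET3x2 rats lay close together and well above a spread-out ET3x1 group (1.00 ± 0.21, 2.00-fold, limma adjusted p = 0.00539). Nfat5, the osmolality-responsive transcription factor, read 9.49, 9.43, 9.27 and 8.82 against 8.58, 8.95, 8.68 and 7.54 (0.81 ± 0.26, limma adjusted p = 0.0449). Here ET3x2 rat 4 was below ET3x1 rat 2, the call was lost when any of 6 of the 8 rats was left out, and the other Nfat5 probe set differed by 0.16 ± 0.10 (limma adjusted p = 0.341). Over the list of osmolyte and urea genes Slc5a3 was the one call among 8 tested (12.5%, against 6.44% of all genes), with a median difference of 0.14 against 0.03 over all genes.

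Adhesion, signalling and enzyme genes filled the rest of the higher group. Tns1 encodes tensin, which links integrins to actin at focal adhesions. Its most different probe set read 9.71, 9.59, 9.91 and 9.61 in ET3x2 and 8.45, 8.45, 8.45 and 8.46 in ET3x1, the smallest spread of any ET3x1 group among these genes (1.25 ± 0.15, 2.38-fold, limma adjusted p = 5.7e-05). A brighter Tns1 probe set was called higher by 0.25 ± 0.08, and a probe set on RAE230B was called the other way, with -0.26 ± 0.08 (limma adjusted p = 0.0489), so the gene as a whole has no single direction. Evi5, a Rab GTPase-activating protein gene, ranged from 8.38 to 9.35 in ET3x2 and from 7.0 to 8.19 in ET3x1 (1.24 ± 0.23), while its other probe set was not called (0.08 ± 0.09, limma adjusted p = 0.618). The synaptic vesicle glycoprotein gene Sv2b gave 8.68, 8.74, 8.64 and 7.99 against 7.55, 7.64, 7.74 and 7.20 (0.98 ± 0.15). Cpd, for carboxypeptidase D, gave 9.17, 8.90, 8.90 and 8.51 against 7.96, 8.07, 7.95 and 7.59 (0.97 ± 0.20). In both genes rat 4 was the lowest of its group in each strain, and the groups did not overlap.

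Mgll encodes monoacylglycerol lipase, which ends endocannabinoid signals, and read 9.13, 10.04, 9.28 and 9.09 in ET3x2 against 8.85, 8.60, 8.57 and 8.19 in ET3x1 (0.83 ± 0.23). Its call was lost without ET3x2 rat 2 (0.61), ET3x1 rat 3 or ET3x1 rat 4, and the other 2 Mgll probe sets were not called (0.09 and -0.22). Cmip, a signalling adaptor gene, ranged from 8.77 to 9.01 against 7.82 to 8.34 (0.78 ± 0.15). Prlr, the prolactin receptor, had another relation to S than most of these genes: the ET3x2 rats (9.47, 9.81, 9.32 and 9.11) lay above the ET3x1 rats (8.77, 8.84, 8.69 and 8.30) by 0.78 ± 0.19 and above S by 0.71 ± 0.18, while ET3x1 differed from S by -0.07 ± 0.18 (limma adjusted p = 0.0264 and 0.835). Its call was lost without ET3x2 rat 2, and neither of its 2 other probe sets was called (-0.05 and -0.32). Cish, whose product restrains signals from the prolactin and growth hormone receptors through STAT5, stood among the lower genes.

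Of the lower genes Gba3, a cytosolic beta-glucosidase, had the largest difference of any named gene. Its signal was 7.17, 7.10, 7.24 and 7.31 in ET3x2 and 9.22, 9.31, 9.03 and 8.44 in ET3x1 (-1.80 ± 0.35, 3.47-fold lower, limma adjusted p = 0.00337). The ET3x2 rats lay below the means of both strains on low salt (7.47 in ET3x2 and 7.73 in ET3x1), and the ET3x1 rats on high salt were 1.33 ± 0.33 above S on the same diet. Cish read 7.04, 6.71, 6.98 and 7.51 against 8.36, 8.27, 8.50 and 8.16 (-1.26 ± 0.32, limma adjusted p = 0.0163), without overlap, and was not called without ET3x1 rat 3 or ET3x2 rat 2. Its other probe set differed by -0.72 ± 0.30 and was not called. The called Cish probe set averaged 7.06 in ET3x2 and 7.38 in S on high salt, and 7.47 in ET3x1 on low salt. These means were below the brightness limit of RAE230A (7.51), while that of ET3x2 on low salt (7.65) was above it.

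Several lower genes act on RNA or in translation. The RNA helicase gene Ddx3x read 6.57, 5.47, 6.47 and 6.60 against 6.80, 7.51, 7.77 and 7.66 (-1.15 ± 0.22), and another of its probe sets was called in the same direction (-0.77 ± 0.22), while its probe set on RAE230A differed by -0.06 ± 0.09. The first Ddx3x probe set averaged 6.28 in ET3x2 on high salt, and 6.18 in ET3x2 and 6.05 in ET3x1 on low salt. These means were below the brightness limit of RAE230B (6.38), while ET3x1 (7.43) and S (7.02) on high salt were above it. Eif4g2, a translation initiation factor gene, read 9.79, 8.66, 9.74 and 9.72 against 10.11, 10.46, 10.65 and 10.67 (-0.99 ± 0.24), and its 2 probe sets on RAE230A were not called (-0.08 and 0.06). In both genes ET3x2 rat 2 was far below the other 3 rats of its group, and without it Eif4g2 was not called. Pum2, for an RNA-binding repressor of translation, ranged from 7.15 to 7.99 against 8.43 to 8.78 (-0.92 ± 0.19), and the RNA helicase gene Ddx19a from 7.75 to 8.50 against 9.09 to 9.12 (-0.92 ± 0.16). Neither Pum2 probe set on RAE230A was called (0.01 and 0.08), nor was the other one of Ddx19a (0.21 ± 0.14).

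Cell surface, cytoskeletal and metabolic genes completed the lower group. App, the amyloid precursor protein gene, ranged from 8.39 to 9.52 in ET3x2 and from 9.78 to 10.74 in ET3x1 (-1.05 ± 0.24), and another App probe set was called in the same direction (-0.49 ± 0.13). Actr3, a core subunit of the Arp2/3 complex that nucleates branched actin, read 8.31, 7.31, 8.25 and 8.20 against 8.72, 9.04, 9.10 and 9.0 (-0.95 ± 0.17). Itga6, the integrin that binds laminin, ranged from 6.54 to 7.32 against 7.70 to 8.14 (-0.90 ± 0.18). In these genes ET3x2 rat 2 was again the lowest rat, and no rat of the groups overlapped. The sialyltransferase gene St6gal1 (-0.94 ± 0.25) did overlap, since ET3x2 rat 1 at 8.71 was above ET3x1 rat 1 at 8.64, and its call was lost without ET3x2 rat 2 or ET3x1 rat 3 or 4. Mmut, the methylmalonyl-CoA mutase of mitochondria, read 8.31, 7.55, 8.33 and 7.99 against 8.73, 9.19, 9.25 and 8.70 (-0.92 ± 0.19), and Mycbp, for a binding partner of Myc, 6.50, 6.26, 6.54 and 6.19 against 7.38, 7.55, 7.21 and 7.0 (-0.91 ± 0.16). Both other Mmut probe sets were below 0 and not called (-0.66 and -0.28).

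**Figure D2:**
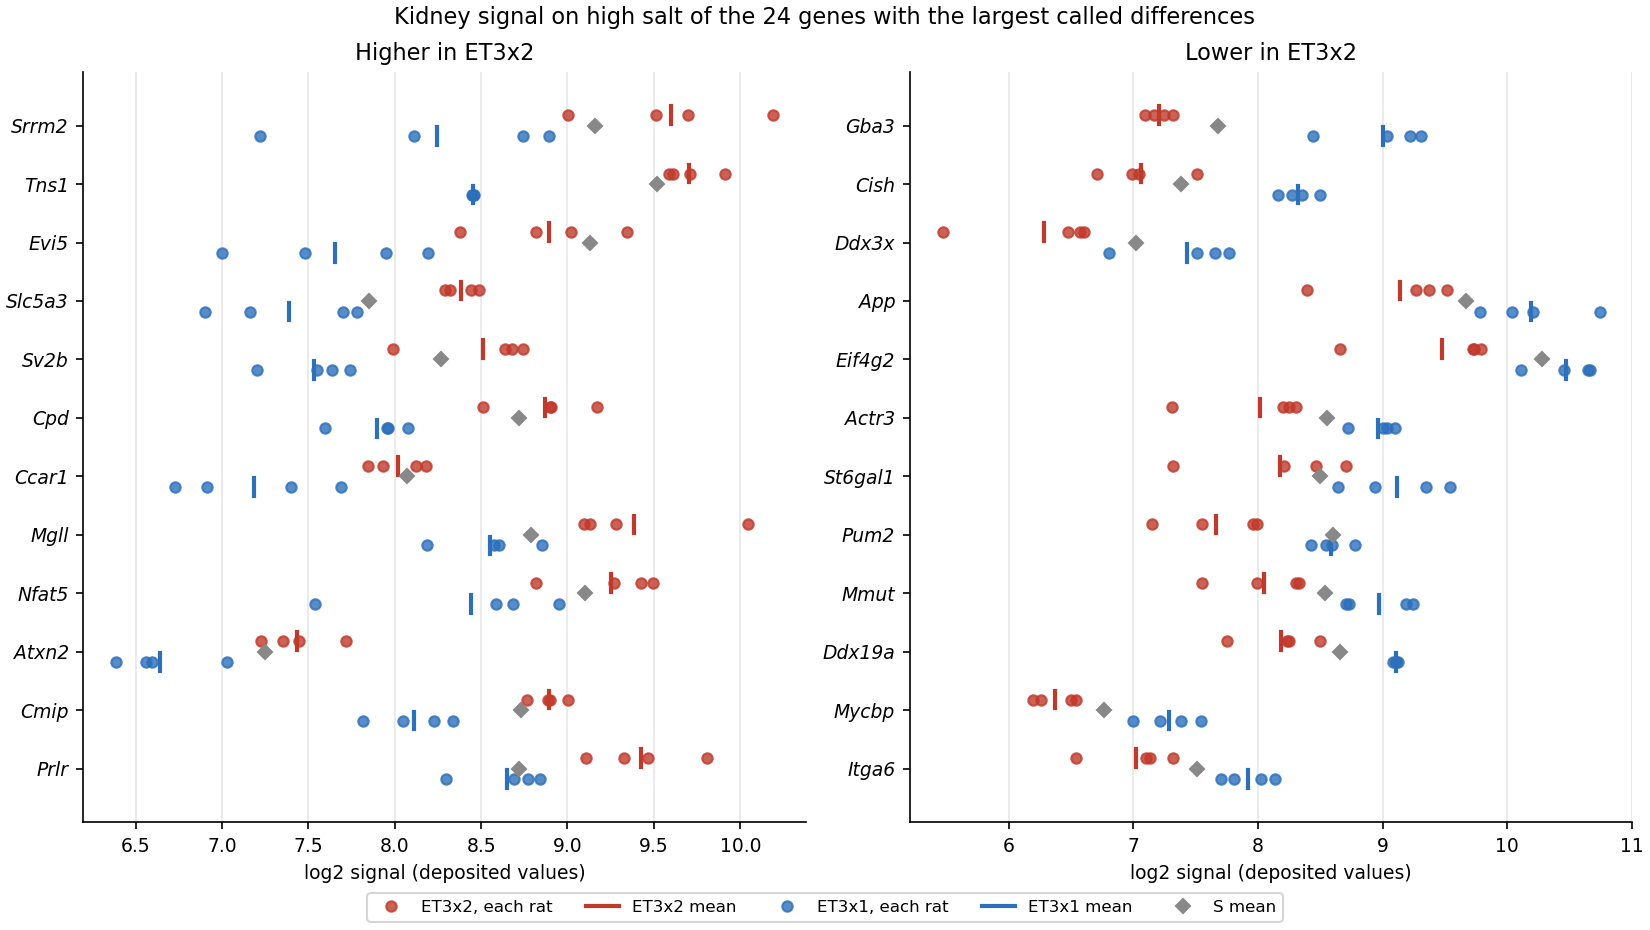
Deposited log2 signal on high salt of the 12 genes with the largest called difference in each direction, with ET3x2 rats in red, ET3x1 rats in blue, bars for group means and grey diamonds for the mean of the S rats. The 4 and 4 rats are separate in 22 of the 24 genes, and the S mean lies between the means of the congenic strains in 21.

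The rats of the 2 strains did not overlap in 22 of these 24 genes, all but Nfat5 and St6gal1, as they did not in 2796 of all tested probe sets (18.1%). The 24 were picked for their difference between these same rats, which by itself favours groups that do not overlap. Within the group of 24, 9 genes were measured on RAE230A and 15 on RAE230B. For 17 of them the arrays held 27 other tested probe sets, and in 4 genes (Srrm2, Tns1, App and Ddx3x) another one was called in the same direction, whereas in 13 none was. Over all genes, 395 of 431 called genes with several tested probe sets had just 1 called. Of the 36 with several, 30 had them in 1 direction and 6 in both.

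The position of the S rats was then read for the same genes, with the reminder that these contrasts share the congenic rats with the main one. In 21 of the 24 genes the S mean on high salt lay between the congenic means. The genes were picked for a wide gap between these means, which by itself makes a mean inside it likely. ET3x1 differed from S by a called amount in 12 of the 24 and ET3x2 in 4. Over all tested probe sets limma called 2246 (14.5%) between ET3x1 and S and 658 (4.25%) between ET3x2 and S on high salt. Among the 1427 called probe sets the ET3x1 rats on high salt had the highest or the lowest mean of all 6 groups in 1324 (92.8%), against 7167 of all 15473 (46.3%). For the ET3x2 rats on high salt the counts were 418 (29.3%) and 2722 (17.6%). Called probe sets were picked by the contrast of these same groups, which by itself favours an end position. The group at the end of the range was mostly ET3x1 on high salt, which also had the lowest 3' to 5' differences, and the part of RNA quality in these counts was not tested.

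The same strain contrast in other rats, kept on low salt, gave 422 calls (2.73%), of which 154 were higher (0.995%) and 268 lower (1.73%) in ET3x2, and by brightest probe set 296 genes (3.35%). Of those called on high salt, 24 were called higher on both diets, which is 2.83% of the 849 and 15.6% of the 154, and 26 were called lower on both, 4.50% of the 578 and 9.70% of the 268. The 50 shared probe sets are 0.323% of those tested. The low salt count fell to 256, 165 and 188 without ET3x1 rat 1, 3 or 4, and to 236 and 191 without ET3x2 rat 2 or 4. Of the 1427 called on high salt, 1041 (73.0%) had the same sign on low salt, with a median absolute difference of 0.11 there against 0.38 on high salt. Over all tested probe sets the median absolute difference was 0.09 on low salt and 0.11 on high salt. Called probe sets were picked for their difference on high salt, which by itself makes that difference the larger one. The share with the same sign was not counted over all tested probe sets. None of the 24 genes with the largest differences was called on low salt, and 13 had the opposite sign. The correlation of the strain difference between diets was 0.22 (Pearson) across 15473 probe sets, which are not independent replicates.

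The genes called in both sets of rats, 40 with a symbol, were 19 higher and 21 lower in ET3x2, and they are named here after their values were seen. Gatm, the enzyme that makes the precursor of creatine, read 11.57, 11.64, 11.91 and 11.15 in ET3x2 and 12.27, 12.21, 12.55 and 12.25 in ET3x1 on high salt (-0.75 ± 0.13, limma adjusted p = 0.00164), and differed by -1.02 ± 0.13 on low salt, while its other probe set was not called on high salt (-0.06 ± 0.09). The rats did not overlap on high salt. Gclm, the regulatory subunit of the enzyme that starts glutathione synthesis (-0.49 ± 0.12 and -0.53 ± 0.12), and the catalase gene Cat (-0.43 ± 0.12 and -0.58 ± 0.12) were lower on both diets. So were Cltrn, for collectrin, a partner of the amino acid transporters of the proximal tubule (-0.34 and -0.58), Pgrmc1, a heme-binding membrane protein gene (-0.36 and -0.66), Ctsl, for the lysosomal protease cathepsin L (-0.31 and -0.39), Dag1, for dystroglycan (-0.42 and -0.48), and the class I antigen gene RT1-A (-0.47 and -0.50). Genes of the class I family are near copies of each other, so that a probe set may read more than one of them.

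Higher on both diets were Tob2, an antiproliferative gene (0.42 ± 0.09 and 0.51 ± 0.09), Rasgef1b (0.40 and 0.37), Prodh, the proline dehydrogenase of mitochondria (0.36 and 0.36), Limk2, a kinase that acts on the actin regulator cofilin (0.35 and 0.38), Orc2, of the origin recognition complex (0.34 and 0.41), and the neuroglobin gene Ngb (0.32 and 0.54). Per3, a repressor gene of the circadian clock, read 7.70, 7.92, 7.74 and 7.69 in ET3x2 and 7.41, 7.40, 7.49 and 7.40 in ET3x1 on high salt (0.34 ± 0.11, limma adjusted p = 0.0426) and differed by 0.38 ± 0.11 on low salt (limma adjusted p = 0.0444). The groups did not overlap, and with 3 rats in either group the call on high salt was lost every time, the difference then being 0.29 to 0.36. Of the 40 genes 8 lay on chromosome 3 (20%), which holds 669 of the 8825 tested genes (7.58%): Ralgds, Nup188, Abl1, Mtch2, Cat, Zfyve19, Gatm and Fkbp1a, in that order along the chromosome, at places 70 to 477 of 669.

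**Figure D3:**
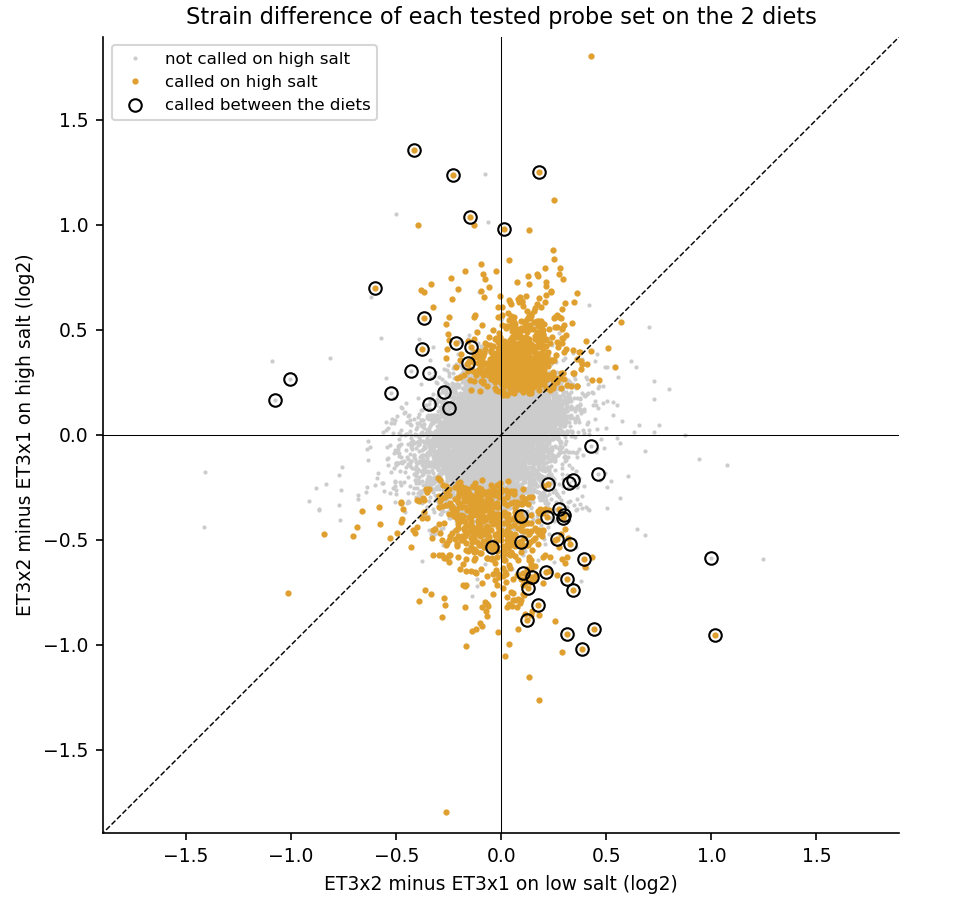
Difference between the strains on low salt (horizontal) and on high salt (vertical), in log2 units, for each of 15473 tested probe sets, with probe sets called on high salt in orange and those whose difference changed with diet circled. Most orange points spread along the vertical axis near 0 on the low salt axis, and the dashed line marks equal differences on both diets.

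Whether the strain difference itself changed with diet was tested as an interaction. limma called 47 probe sets (0.304%), 19 positive (0.123%) and 28 negative (0.181%), and 2302 had an unadjusted p below 0.05. The largest positive ones with a gene symbol were Srrm2 (1.77 ± 0.38), Evi5 (1.47 ± 0.32), Erbin (1.30 ± 0.23), Pgpep1 (1.24 ± 0.23), Tns1 (1.07 ± 0.21) and Sv2b (0.97 ± 0.22). Erbin, whose product anchors the receptor Erbb2 at the basolateral membrane, was called in opposite directions: ET3x2 was higher by 0.70 ± 0.16 on high salt (8.32, 8.47, 8.72 and 7.82 against 7.48, 7.76, 7.76 and 7.53) and lower on low salt (-0.60 ± 0.16, limma adjusted p = 0.0389), while its other probe set was not called (-0.07 ± 0.12). In Pgpep1, a peptidase gene, the interaction came from low salt (-1.07 ± 0.16), and the difference on high salt was 0.16 ± 0.16 (limma adjusted p = 0.561).

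On the negative side both actin-related proteins of the Arp2/3 complex appeared, Actr3 (-1.26 ± 0.24) and Actr2 (-1.0 ± 0.23). Actr2 read 8.56, 7.77, 8.49 and 8.40 in ET3x2 and 9.01, 9.10, 9.45 and 9.17 in ET3x1 on high salt (-0.88 ± 0.16), without overlap. Its 3 other probe sets were not called (0.27 and -0.28 on RAE230A and 0.24 on RAE230B), and they did not share a direction. The others were Mmut (-1.36 ± 0.27), the lipid-binding protein gene Osbpl1a (-1.0 ± 0.22), Krcc1 (-0.99 ± 0.19) and Papss2, which makes the sulfate donor of the cell (-0.98 ± 0.19). In each of these 6 genes the ET3x1 rats were higher than the ET3x2 rats on high salt, and the ET3x2 rats had the higher mean on low salt. The interaction counts rested on single rats: limma called none without ET3x1 rat 3 or ET3x2 rat 2 of either diet (1759 to 2136 at an unadjusted p below 0.05), from 2 to 31 without 8 other rats, and 361 and 114 without ET3x1 rat 1 on low salt and ET3x2 rat 4 on high salt. With the Gapdh difference as a covariate limma called none (1989 at an unadjusted p below 0.05), with beta-actin 7 and with the spike-in difference 2.

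Marker genes of the nephron segments, which include sodium transporters and many other genes, were read against 6.44% called over all genes. None of the 19 tested proximal tubule genes was called (median -0.03, against 0.03 over all genes), none of 12 genes of the thick ascending limb (-0.10), none of 10 of the distal convoluted tubule (0.03), none of 10 of the collecting duct principal cell (0.05) and none of 8 of the sodium pump (0.04). The cotransporter gene Slc12a1 read 9.44, 9.44, 9.70 and 9.06 in ET3x2 and 9.75, 9.49, 10.02 and 9.64 in ET3x1 (-0.31 ± 0.14, limma adjusted p = 0.138). The thiazide-sensitive Slc12a3 read 10.30, 10.83, 10.61 and 10.43 against 10.24, 10.17, 10.29 and 10.38 (0.27 ± 0.11, limma adjusted p = 0.104). Both overlapped. Further values were 0.22 ± 0.08 for the vasopressin receptor gene Avpr2 by its brightest probe set (another one was called, 0.27 ± 0.08), -0.17 ± 0.07 for the sodium channel subunit gene Scnn1b, -0.53 ± 0.24 for the potassium channel gene Kcnj1, -0.20 ± 0.10 for the bicarbonate cotransporter gene Slc4a4 and -0.45 ± 0.15 for the magnesium channel gene Trpm7 (limma adjusted p = 0.0583). Slc3a1 (0.10 ± 0.06), Fxyd2 (-0.13 ± 0.08) and Fxyd4 (0.13 ± 0.10) were not called either.

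Among intercalated cell genes, which serve acid secretion, 2 of 7 were called (28.6%, against 6.44% of all genes), in opposite directions: the transcription factor gene Foxi1 was lower (-0.41 ± 0.11) and the proton pump subunit gene Atp6v1c2 higher (0.33 ± 0.09). The groups overlapped in Foxi1. Leaving out 1 rat lost the Foxi1 call in 3 of 8 cases and the Atp6v1c2 call in 4 of 8. None of 8 tested genes of the angiotensin and aldosterone system was called (median -0.14), the glucocorticoid receptor gene Nr3c1 being at -0.26 ± 0.12 and the prorenin receptor gene Atp6ap2 at -0.32 ± 0.15 by its brightest probe set, with another one called (-0.73 ± 0.14). Sgk1, an aldosterone-induced kinase, ranged from 9.86 to 10.50 in ET3x2 and from 9.73 to 10.00 in ET3x1 (0.28 ± 0.19, limma adjusted p = 0.371). Agt, angiotensinogen, was below the brightness limit, and without that limit it differed by 0.10 ± 0.13 (limma adjusted p = 0.681). None of 13 immediate early genes was called (Fosl2 0.25 ± 0.11, Zfp36 -0.28 ± 0.18).

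Vessel, stroma and blood cell markers were read as other cell types of the kidney, again beside 6.44% called and a median of 0.03 over all genes. Of 13 endothelial genes 2 were called higher in ET3x2 and none lower (15.4%, median 0.10): Nrp1, a receptor for semaphorins and VEGF, read 9.88, 10.00, 9.76 and 9.64 against 9.17, 9.21, 9.19 and 9.10 (0.65 ± 0.15), and the endothelial phosphatase gene Ptprb 7.67, 7.70, 7.71 and 7.75 against 7.23, 7.17, 7.25 and 7.37 (0.45 ± 0.09). Neither overlapped, and the mean of the 13 genes, which includes these 2, was 8.79 to 8.83 in ET3x2 and 8.64 to 8.72 in ET3x1. The mean without Nrp1 and Ptprb was not examined. The other Nrp1 probe set, which is not in the mean, differed by -0.25 ± 0.13. Of 11 smooth muscle and pericyte genes 1 was called lower, the smooth muscle actin gene Acta2 (-0.47 ± 0.11, median of the list -0.10). Leukocyte genes had 1 call of 22 (4.55%), the class II antigen gene RT1-Db1 (10.33, 10.18, 10.21 and 10.27 against 9.78, 9.62, 9.46 and 9.54, 0.65 ± 0.18). Of the 22, 20 were above 0 (median 0.12), beside 5164 of all 8825 genes tested. Their mean ran from 9.13 to 9.26 in ET3x2 and from 9.01 to 9.14 in ET3x1, just overlapping. Of 4 erythroid genes 1 was higher, Slc25a37, for an iron importer of mitochondria (0.32 ± 0.10), and their mean, 10.38 to 10.74 against 9.85 to 10.65, overlapped. None of 5 podocyte genes was called (Cd2ap -0.31 ± 0.13, Cdkn1c -0.24 ± 0.10).

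Adhesion and matrix genes had calls in both directions, beside 6.44% called over all genes. Of 26 genes of focal adhesions and actin linkers 3 were called lower in ET3x2 and 1 higher by their brightest probe set (15.4%, median 0.02): the actin crosslinker gene Actn4 (-0.46 ± 0.11) and the integrin genes Itgb1 (-0.44 ± 0.13) and Itgav (-0.39 ± 0.08) were lower, and Tns1 was higher. Another Itgb1 probe set was called lower too (-0.60 ± 0.19). So were less bright probe sets of Vcl (-0.53 ± 0.07) and Itga6 (-0.90 ± 0.18), which are on the list and not in its count. Of 23 matrix genes 2 were called higher, the growth factor gene Ccn2 (0.51 ± 0.16) and the laminin gene Lamb2 (0.44 ± 0.12). Of 13 genes of tubular injury 1 was called lower, the adhesion molecule gene Icam1 (-0.28 ± 0.08), and of 20 chaperone genes 1 was called higher, Bag3 (0.32 ± 0.10).

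Metabolic lists were read against the same share over all genes, 6.44%, with 368 higher and 200 lower. Of 28 genes of creatine and amino acid metabolism 3 were called lower in ET3x2 (10.7%, median 0.01): Gatm, Acmsd, which acts in tryptophan breakdown (-0.64 ± 0.17), and Agxt2, which breaks down methylarginines (-0.26 ± 0.07). Prodh, which was called higher (0.36 ± 0.08), is not in this count, since the list held it under another symbol. Of 11 genes of gluconeogenesis and ammonia production 1 was called lower (9.09%), the glutamate dehydrogenase gene Glud1 (-0.31 ± 0.08), and of 19 of cholesterol synthesis 1 (5.26%), Lss (-0.33 ± 0.10), while of 26 of fatty acid oxidation 1 was called higher (3.85%), Eci1 (0.39 ± 0.11). Of 72 nuclear genes of oxidative phosphorylation 3 were called lower (4.17%, median -0.03), Ndufs1 (-0.35 ± 0.10), Cox7b (-0.26 ± 0.08) and Cox6c-ps1 (-0.26 ± 0.08). Members of this list were taken by the pattern of their symbols, and Cox6c-ps1 is a pseudogene by its symbol. The mitochondrial genes COX1 (-0.44 ± 0.26) and COX2 (-0.27 ± 0.09) were not called. Of 48 splicing factor genes 4 were called lower by their brightest probe set (8.33%, median -0.05), and these were of the hnRNP family: Hnrnph2 (-0.73 ± 0.18), Hnrnpa2b1 (-0.47 ± 0.13), Hnrnpll (-0.44 ± 0.12) and Hnrnpd (-0.44 ± 0.11). A less bright probe set of Sf3b2, which is also on this list, was called lower too (-0.41 ± 0.08). None of 41 ribosomal protein genes (Rpl23a -0.18 ± 0.07, Rps29 -0.14 ± 0.06) and none of 44 proteasome genes (Psmd14 -0.36 ± 0.12, Psmc6 -0.35 ± 0.12) was called by its brightest probe set, though another probe set of Psmc6 was (-0.56 ± 0.15). Of 13 clock genes 1 was called, Per3 (7.69%, median 0.16).

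**Figure D4:**
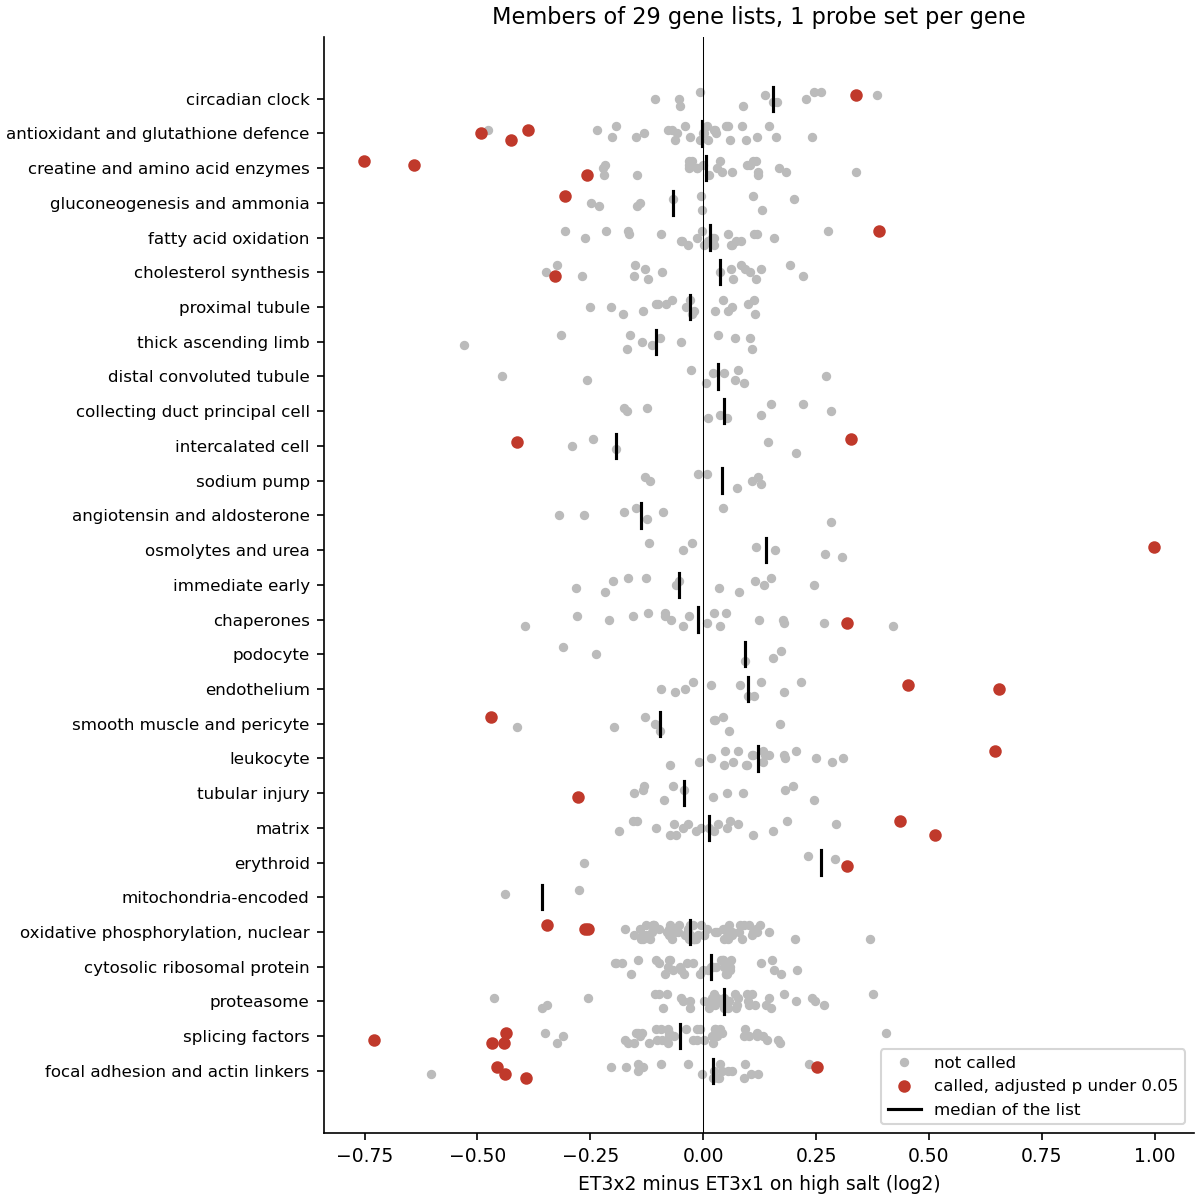
Difference between ET3x2 and ET3x1 on high salt, in log2 units, of each tested member of 29 gene lists, with 1 probe set per gene, called members in red and the median of each list as a black bar. List medians run from -0.36 (2 mitochondria-encoded genes) to 0.26 (4 erythroid genes), no list has more than 4 called members, and Slc5a3 among the osmolyte genes is the farthest to the right.

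Antioxidant genes gave 3 lower calls and no higher one among 32 tested (9.38%, median -0.004), beside 6.44% and 0.03 over all genes. Gclm read 11.35, 11.05, 11.50 and 10.94 in ET3x2 against 11.50, 11.61, 11.88 and 11.82 in ET3x1. Cat read 11.72, 11.73, 11.94 and 11.26 against 12.13, 11.86, 12.08 and 12.28. The mitochondrial superoxide dismutase gene Sod2 read 10.14, 10.21, 10.11 and 10.06 against 10.43, 10.62, 10.54 and 10.48 (-0.39 ± 0.09). Only Sod2 was free of overlap among these 3, and it was not called on low salt (-0.06 ± 0.09). Many genes of this defence carry an antioxidant response element, the binding site of Nfe2l2, whose own transcript differed by -0.15 ± 0.11 and was not called. The 250 bases before the annotated start of the 3 genes (RefSeq, build GRCr8, each on the strand of its gene) are shown because these were the members called lower in ET3x2 than in ET3x1, with matches to TGACNNNGC on either strand in capitals. The windows are chr2:213031885-213032134 (plus strand) for Gclm, chr1:50050169-50050418 (minus strand) for Sod2 and chr3:110329527-110329776 (minus strand) for Cat.
Gclm: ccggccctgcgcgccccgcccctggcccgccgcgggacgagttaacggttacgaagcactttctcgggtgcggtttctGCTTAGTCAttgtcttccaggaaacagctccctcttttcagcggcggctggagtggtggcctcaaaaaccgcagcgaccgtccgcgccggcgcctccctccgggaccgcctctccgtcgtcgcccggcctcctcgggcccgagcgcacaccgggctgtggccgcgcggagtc
Sod2: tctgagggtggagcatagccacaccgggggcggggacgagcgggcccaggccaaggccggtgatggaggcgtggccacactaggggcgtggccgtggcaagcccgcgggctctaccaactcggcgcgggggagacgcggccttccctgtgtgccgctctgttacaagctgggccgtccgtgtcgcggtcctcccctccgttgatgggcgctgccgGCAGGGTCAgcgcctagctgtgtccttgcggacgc
Cat: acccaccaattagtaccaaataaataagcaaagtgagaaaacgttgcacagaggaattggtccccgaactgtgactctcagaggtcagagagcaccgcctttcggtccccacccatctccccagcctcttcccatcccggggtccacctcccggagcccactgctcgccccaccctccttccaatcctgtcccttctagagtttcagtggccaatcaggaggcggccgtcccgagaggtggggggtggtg
The Gclm and Sod2 windows hold 1 match each, both on the reverse strand, and these letters are not in the Cat window. Over windows of 300 bases that add 50 bases after the start, 7 of the 27 antioxidant genes with a window held a match (25.9%), against 3342 of 27457 promoters (12.2%). The clock motifs CACGTG and TTATGTAA were not in the window of Per3. They were in 3 and 1 of the windows of 12 clock genes (25% and 8.33%), against 6.65% and 0.881% of all promoters.

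Chromosome 3 was read because the R segments of these strains are known to lie on it. Of its 669 tested genes 42 were called (6.28%, against 6.44% of all genes), 24 higher and 18 lower. In 10 consecutive parts of these genes, each gene by its brightest probe set, the called share ran from 2.99% to 11.9%. Calls were all in 1 direction in part 4, with 6 of 67 lower in ET3x2 (8.96%), and in the last part, with 4 of 67 higher (5.97%). The 4 were the zinc finger gene Znfx1 (0.42 ± 0.09), the sodium/proton exchanger gene Slc9a8 (8.71, 8.71, 8.70 and 8.84 against 8.30, 8.42, 8.38 and 8.48, 0.34 ± 0.06), Dido1 (0.45 ± 0.10) and Pcmtd2 (0.56 ± 0.16). Rtel1, a DNA helicase gene near the end of the chromosome (place 659 of 669), read 8.08, 8.02, 8.01 and 7.94 in ET3x2 and 7.73, 7.97, 7.69 and 7.62 in ET3x1 (0.26 ± 0.08, limma adjusted p = 0.0312). ET3x1 rat 2 was above ET3x2 rat 4, the call was lost without any of 6 of the 8 rats, and the other Rtel1 probe set, the brighter one by which the gene was counted above, was not called (0.12 ± 0.09). Both strains were above the S rats, whose mean was 7.15 ± 0.07 (SD, n = 5).

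The control measures that differed between the groups were then added to the fit 1 at a time. With the Gapdh difference 273 probe sets were called, of which 266 were among the 1427 and in the same direction. With beta-actin 908 were called, 815 of them among the 1427, and with the spike-in difference 83, of which 75 were among them. Over the 1427 probe sets the differences went to a median of 0.947, 0.954 and 0.903 of their size, while their median standard error rose from 0.10 to 0.116, 0.105 and 0.141. Of the 424 calls on RAE230A 31, 203 and 58 were called again with the 3 covariates, and of the 1003 on RAE230B 235, 612 and 17. Single genes moved further: of the 61 called genes that the naming rule picks, 7, 2 and 8 had a difference more than 1.5 times smaller with the Gapdh, beta-actin and spike-in measures, and Papss2 a larger one with the last (-0.59 to -1.10). With the spike-in difference Cmip went from 0.78 to 0.25, Atxn2 from 0.79 to 0.41, Ccar1 from 0.84 to 0.48, Gba3 from -1.80 to -1.03, Eif4g2 from -0.99 to -0.59 and Pum2 from -0.92 to -0.57, and none of these was then called. With Gapdh St6gal1 went from -0.94 to -0.32, Acmsd from -0.64 to -0.28, Hnrnpd from -0.44 to -0.25 and Itgb1 from -0.44 to -0.26, and these were not called either. With beta-actin St6gal1 went to -0.58 and Itgb1 to -0.29. Of the 24 genes with the largest differences, 15 were called with Gapdh, 21 with beta-actin and 4 (Srrm2, Tns1, Sv2b and Cpd) with the spike-in difference, and 17 were called whichever of the 8 rats was left out. Of the 33 called genes named from the lists these counts were 4, 19, 7 and 9.

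**Figure D5:**
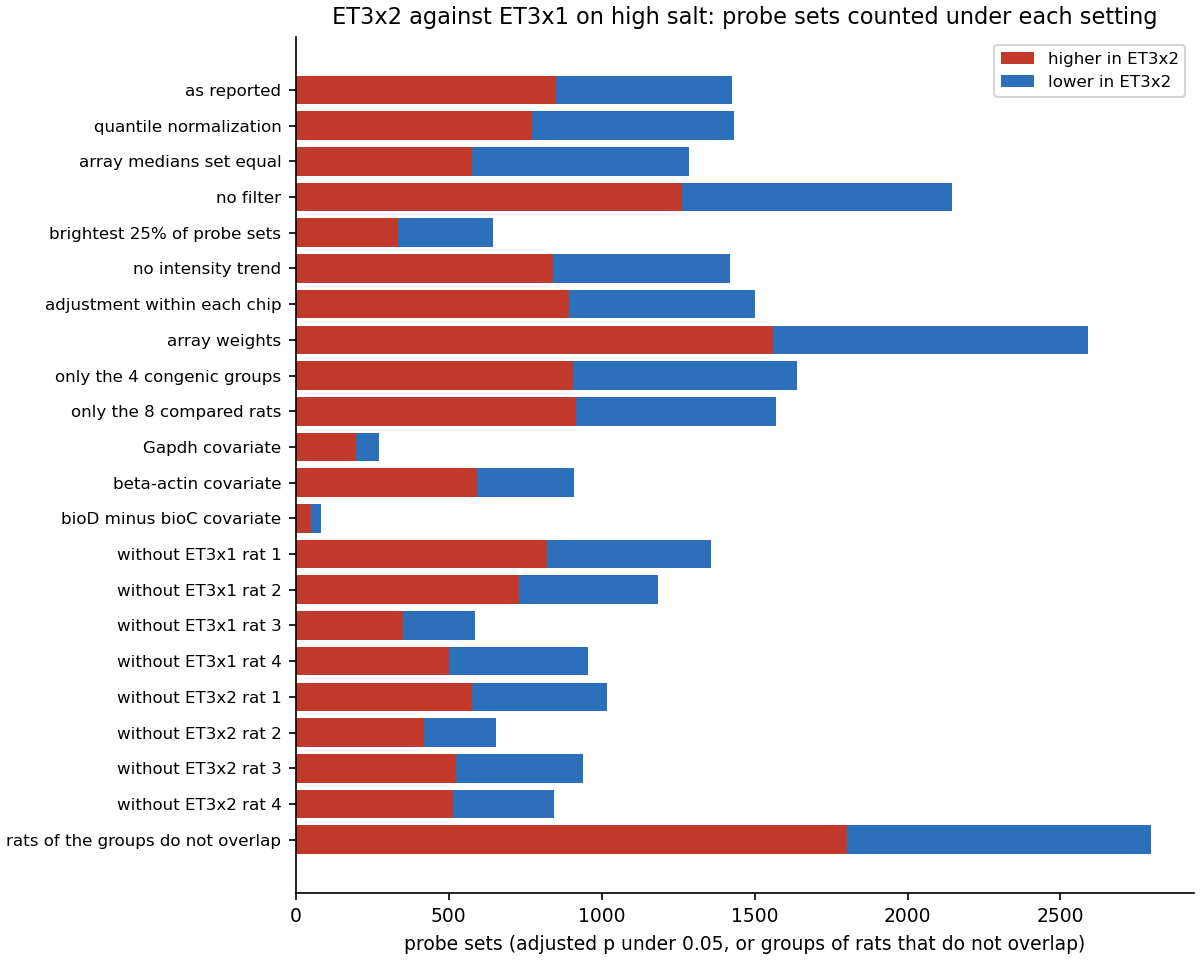
Number of probe sets counted as different between ET3x2 and ET3x1 on high salt under each setting, split into higher (red) and lower (blue) in ET3x2. The reported fit gives 1427, the control covariates 273, 908 and 83, and the last bar counts the 2796 probe sets whose 4 and 4 rats do not overlap.

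A group of 33 probe sets, 23 higher and 10 lower, was called in the reported fit, with each of the 3 covariates and without each of the 8 rats, and it was picked after these values were known. It holds 23 genes. Besides Srrm2, Tns1, Sv2b, Cpd and Erbin the higher ones include Mmp14, a membrane-bound protease that cuts collagen (9.91, 9.85, 9.55 and 9.43 against 9.26, 8.98, 8.81 and 8.69, 0.75 ± 0.17), Ccnt2, a cyclin of the elongation factor P-TEFb (0.73 ± 0.13), the sorting receptor gene Sorl1 (0.56 ± 0.11), Ddit4, a stress-induced inhibitor of mTOR (0.56 ± 0.13), Znfx1, Ggt5 (0.42 ± 0.08) and Aplf, a DNA repair gene that was also higher on low salt (0.29 ± 0.06 and 0.34 ± 0.06). The remaining higher ones were Ddx24, Mfhas1, Glcci1 and Tspyl4. The lower ones were Gatm, the tropomyosin gene Tpm4 (9.50, 8.76, 9.32 and 9.20 against 9.70, 9.90, 10.19 and 10.21, -0.81 ± 0.14), the vinculin gene Vcl (6.80, 6.59, 6.63 and 6.76 against 7.29, 7.14, 7.32 and 7.17, -0.53 ± 0.07), the translation factor gene Eif3l (-0.78 ± 0.14), the lipase gene Pnpla3 (-0.51 ± 0.07), the splicing factor gene Sf3b2 (-0.41 ± 0.08) and Tamm41 (-0.45 ± 0.09). Their rats did not overlap on high salt. The largest called difference of all, 1.80 ± 0.23, belonged to a probe set of RAE230A that the annotation used here does not pair with a gene: it read 9.02, 9.43, 8.81 and 8.52 in ET3x2 and 7.34, 7.43, 7.06 and 6.74 in ET3x1 and differed by 0.43 ± 0.23 on low salt.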

How the data were processed

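Per the labels, total RNA of 1 left kidney per rat was hybridised as biotin-labelled cRNA to RAE230A and RAE230B chips. The authors deposited values on a log2 scale, with array medians of 7.47 to 7.52 and 6.34 to 6.40. How they were summarised and normalized is not given in the sources used here. Left untested were the 57 control probe sets per chip, those whose mean over rats was under the median of the chip (7.51 and 6.38), and the RAE230B copy of 100 probe sets shared by the chips. Each chip was fitted with limma 3.58.1 (R 4.3.3) over 6 groups and 26 rats (20 residual degrees of freedom, intensity trend, tested on simulated data). P-values were adjusted over both chips. Symbols were updated through the RefSeq table of GRCr8: of those tested, 11110 had 1 symbol, 274 had more than 1 and 4089 were unnamed. Named are the 12 largest called differences each way, 6 each way for the interaction, up to 6 called members of a list by brightest probe set (where none, the 2 with the largest statistic), and Sgk1, Agt and Rtel1. Members and lists were chosen with earlier results of these data known. Each rat is 1 replicate, rat numbers only name rats, and the number of arrays limits the precision. The limma p-values set a difference against the spread between rats within groups, estimated over all 26 rats. Control measures were compared with exact permutation tests. Alternatives were other normalizations, filters, fits, covariates and leaving out each rat.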

Additional observations from a re-analysis of the deposited data

Results flagged for a closer look

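Single rats stood far from the other 3 of their group in 14 of 184 groups of 4 values examined by Dixon's test, where chance gives about 1 in 20. ET3x2 rat 2 was low for Ddx3x (5.47), Eif4g2 (8.66), Actr3 (7.31) and Acmsd (10.03). ET3x2 rat 4 was low for Sv2b (7.99), Lss (8.60) and Icam1 (7.96), and ET3x2 rat 1 for COX1 (11.54). Among the ET3x1 rats, rat 3 was high for Per3 (7.49), for Gatm (12.55) and for the Gapdh 3' minus 5' signal on RAE230B (0.548), rat 1 was low for Acmsd (10.88) and high for Avpr2 (8.96), and rat 4 was low for Fxyd4 (9.67). Without ET3x2 rat 2 Ddx3x and Actr3 stayed called, and Eif4g2 and Acmsd did not.

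The strain difference changed with diet, by limma's interaction term with an adjusted p below 0.05, in 12 named genes. In the reported fit the term was positive for Srrm2 (1.77), Evi5 (1.47), Erbin (1.30), Pgpep1 (1.24), Tns1 (1.07) and Sv2b (0.97). It was negative for Mmut (-1.36), Actr3 (-1.26), Actr2 (-1.0), Osbpl1a (-1.0), Krcc1 (-0.99) and Papss2 (-0.98).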

How the results depend on the processing

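On high salt the 1427 calls became 2144 with no filter, 646 in the brightest 25% of probe sets, 2590 with array weights, 273, 908 and 83 with the Gapdh, beta-actin and spike-in covariates, and 2796 when counted by rats that do not overlap. On low salt the 422 calls became 264 with quantile normalization, 843 with no filter, 250 in the brightest 25%, 684 with adjustment within each chip, 1316 with array weights and 266 with the Gapdh covariate. The 47 interaction calls became 29 with no filter, 25 in the brightest 25%, 1626 with array weights, 167 with only the 4 congenic groups, and 0, 7 and 2 with the 3 covariates (limma, 1989 at an unadjusted p below 0.05 with Gapdh). Leaving out 1 rat of either diet gave 587 to 1702, 165 to 533 and 0 to 361 calls on high salt, on low salt and for the interaction. The control differences ranged over leave-outs from 0.111 to 0.187 (Gapdh), 0.222 to 0.327 (beta-actin) and -0.474 to -0.331 (spike-in) on RAE230A, and from 0.123 to 0.209, 0.206 to 0.254 and -0.933 to -0.830 on RAE230B. The cause of these changes was not tested. No called named gene changed sign under any of the 28 alternatives. No paired analysis was possible because the rat numbers only name rats. The number of arrays, 4 per group, limits what can be seen, and probe sets below their chip's median were not tested.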
